A study of Mus musculus with 9 samples.

Results

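The genes followed here build and remodel the matrix around cells: collagen chains, laminin chains, integrin subunits, matrix metalloproteinases (Mmp), their tissue inhibitors (Timp) and the secreted ADAMTS proteases. They were chosen by a rule on gene symbols, set with earlier results of these data known. Of the 15552 protein-coding genes in the count table, 94 met the rule. These were 35 collagen, 15 Mmp, 13 integrin alpha, 11 Adamts, 10 laminin, 5 integrin beta and 4 Timp genes, plus Col4a3bp, whose symbol starts like a collagen's but which encodes a ceramide transfer protein. Itgb1, Itgb3 and Itgb5 were left out by the rule.

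Total RNA was sequenced from MyC-CaP cells, an epithelial-like prostate cancer line from a MYC-driven mouse tumor, in 9 mRNA libraries. After 6 to 12 h of starvation in medium free of serum and calcium, the cells were given NRG1, which binds and activates HER3, at 15 ng/mL. There are 3 biological replicates each for 0, 12 and 24 h, all from the same line and all carrying the NRG1 label, 0 h included. Libraries kept in this medium for 12 or 24 h without NRG1 were not analysed here, so time with NRG1 and time in the medium rise together and their effects cannot be told apart. In what follows, 12 h and 24 h stand for both.

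Epithelial cells sit on a basement membrane, a sheet in which laminin trimers of an alpha, a beta and a gamma chain and type IV collagen form separate networks. Integrins, pairs of an alpha and a beta subunit, hold the cell to these proteins and signal from them. Metalloproteinases cut matrix proteins and growth factor precursors, and TIMPs block their active sites. In prostate cancer, contact with laminin and its loss have long been studied in relation to cell migration and spread.

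The libraries held 28467089 to 39239760 counts, and the 94 genes together took 0.431% to 0.496% of them. Levels are given in CPM, counts scaled to the size of the library, after TMM normalization. A count of 3 corresponded to 0.0765 to 0.105 CPM, which covers counting error only. Of the luminal epithelial markers looked at, Hoxb13 had a mean of 84.3 CPM at 0 h and Krt8 18.2 CPM, whereas Krt18 had 0.253 CPM, Cdh1 0.0824 CPM and Epcam had at most 3 counts in any library, so the epithelial label rested on part of its markers. Mesenchymal markers summed to 261 to 271 CPM per library at 0 h, 240 to 253 CPM at 12 h and 232 to 251 CPM at 24 h, nearly all of it Vim and Pdgfra, and their part in the results was not tested. Acta2 and Pdgfrb had at most 3 counts and 2 counts in any library. The 5 endothelial genes summed to 0.163 to 0.611 CPM, the 5 leukocyte genes in the table to 0.390 to 1.11 CPM, and the 2 basal epithelial genes to 0.174 to 0.421 CPM. Among the 12 h libraries, replicate 3 had the highest value for 28 of 49 tested members, and for 12 of the 16 with a mean of at least 10 CPM. At 0 h and 24 h the library most often highest was replicate 2, for 26 and 24 of the 49. Results that rest on single libraries are given with and without them.

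Only part of the matrix repertoire was expressed. Of the 94 genes, 49 had enough counts to be tested and 45 did not. Among the latter, 26 had at most 3 counts in any library and 12 had at most 1, and the highest count was 25, for Adamts14. The chain genes of type I and type III collagen were nearly empty. Col1a1 had at most 12 counts in a library, Col1a2 1 and Col3a1 7, although these chains form the most abundant collagens of connective tissue. Other genes of connective tissue matrix were abundant, among them Col5a1 and the fibronectin gene Fn1, which is not in the set. Their means over the 9 libraries were 156 and 4595 CPM. Of the classic gelatinases Mmp2 had at most 10 counts and Mmp9 3, and Mmp14, the main membrane-anchored collagenase, had 1. The collagen-binding integrin subunits Itga1 and Itga2 had at most 1 and 7 counts, and the inhibitor gene Timp3, of whose exonic bases 21.3% overlap a gene on the opposite strand, had 6. By class, 16 of 35 collagen genes, 9 of 10 laminin genes, 7 of 13 integrin alpha genes, 3 of 5 integrin beta genes, 4 of 15 Mmp genes, 3 of 4 Timp genes and 6 of 11 Adamts genes were tested.

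Levels differed widely within each class when set per kilobase of exon, the scale on which genes of different length can be compared. Itga3, which encodes the alpha subunit of a major epithelial laminin receptor (ENSMUSG00000001507.16, GRCm38 chr11:95044474-95076801), stood at 384 CPM per kilobase at 0 h and took 44.9% to 49.2% of all counts of the 94 genes. The inhibitor gene Timp2 followed with 76.0, Adamts1 with 66.6, Lama5 with 56.2 and Lamb2 with 44.3 CPM per kilobase. Col4a5 (27.4 CPM per kilobase), Col5a1 (21.0), Itga5 (20.6), Lamc1 (17.7), Itga6 (11.8) and Timp1 (11.8) came next. The highest Mmp gene was Mmp11 at 3.13 CPM per kilobase, and the highest integrin beta gene of the set was Itgb4 at 0.290. The omitted beta subunit genes were far higher, with 211 CPM per kilobase for Itgb1, 125 for Itgb5 and 15.8 for Itgb3. In all, 34 tested members had a mean of at least 1 CPM, 16 of at least 10 CPM and 10 of at least 100 CPM.

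**Figure D1:**
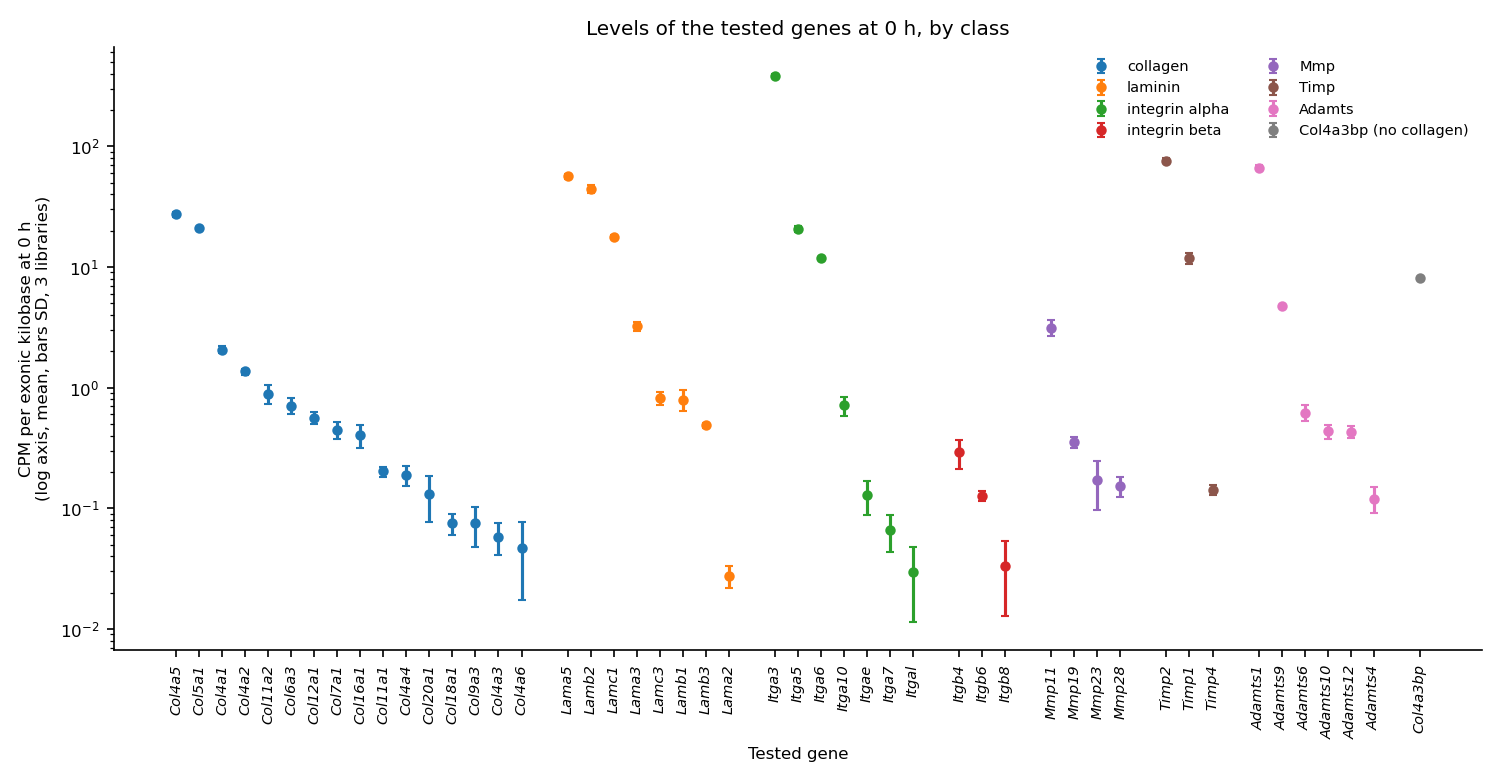
Mean level at 0 h of tested genes in CPM per exonic kilobase, on a log axis, grouped by class, with bars for the SD over 3 libraries. Itga3 stands highest at 384, while every class other than the single gene Col4a3bp runs down to genes below 0.5.

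Promoter sequence is shown for an abundant or regulated gene of each of 4 classes, Adamts1, Timp1, Lama5 and Col5a1, all of which passed the test against 0 h described further on, so that their proximal motifs can be read beside their values. In each the RefSeq start is the gene start in the count table. The stretches are the 150 bases upstream of the start, from the RefSeq promoter table on GRCm38.p6, written 5′ to 3′ on the gene's strand. Capitals mark exact GC boxes (GGGCGG or its reverse complement CCGCCC) and the TATA box TATAAA. Adamts1 lies at chr16:85803114-85803263 on the minus strand, Timp1 at chrX:20870016-20870165 on the plus strand, Lama5 at chr2:180225860-180226009 on the minus strand and Col5a1 at chr2:27886275-27886424 on the plus strand.
Adamts1: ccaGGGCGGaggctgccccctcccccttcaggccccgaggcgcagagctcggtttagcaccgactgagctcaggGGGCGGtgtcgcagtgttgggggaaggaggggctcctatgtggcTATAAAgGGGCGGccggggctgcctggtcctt
Timp1: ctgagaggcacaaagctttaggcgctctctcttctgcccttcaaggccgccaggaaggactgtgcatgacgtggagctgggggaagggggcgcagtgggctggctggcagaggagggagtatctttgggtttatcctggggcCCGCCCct
Lama5: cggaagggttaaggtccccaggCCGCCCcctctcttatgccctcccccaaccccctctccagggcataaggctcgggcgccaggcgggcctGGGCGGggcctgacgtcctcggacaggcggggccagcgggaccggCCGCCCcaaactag
Col5a1: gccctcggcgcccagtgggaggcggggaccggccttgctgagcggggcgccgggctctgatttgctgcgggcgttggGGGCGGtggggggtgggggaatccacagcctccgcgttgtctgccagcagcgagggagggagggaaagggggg

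Adamts1 and Lama5 each held 3 GC boxes in these bases, Timp1 and Col5a1 1 each, and only Adamts1 of the 4 held TATAAA. RefSeq promoters were matched for 67 of the 94 genes (74 promoters), 32 of them tested (37 promoters). In the 250 bases upstream of the start, on either strand, GGGCGG was found in 54.1% of the tested members' promoters and in 32.7% of all 32851 promoters. TATAAA was found in 5.41% and 12.4%, the AP-1 site TGACTCA in 0 of 37 and 4.46%, and the E-box CACGTG in 0 of 37 and 6.02%. Over all 74 matched promoters, members outside the test included, GGGCGG was found in 51.4%, TATAAA in 12.2%, TGACTCA in 6.76% (5 promoters) and CACGTG in 1.35%. The 32851 promoters belong to 27025 genes and were not limited to the genes tested, so these shares set unlike groups side by side. Shares over all tested genes were not taken. These are matches to letters and say nothing of binding.

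The question the time course addresses is how transcripts respond to a HER3 ligand. Changes were tested with edgeR over all 11373 expressed genes, and a gene passed at an adjusted p (Benjamini-Hochberg) of 0.05 or less. In RNA from whole cultures, fewer expressing cells and less transcript per cell cannot be told apart. At 12 h, 16 of the 49 tested members passed, 5 higher and 11 lower than at 0 h, or 32.7% beside 25.5% of all genes tested. At 24 h, 16 passed again, 8 higher and 8 lower, or 32.7% beside 17.4%. The median log2 fold change of the tested members was -0.05 at 12 h and -0.00 at 24 h, beside -0.00 and -0.01 for all genes. With a fold change of at least 1.5 required as well, 2 members were left at 12 h (Lamb1 higher, Timp4 lower), or 4.08% beside 2.29% of all genes. At 24 h 3 were left (Itga7 higher, Timp4 and Col12a1 lower), or 6.12% beside 2.27%. Timp4 entered the tested set through its 0 h counts, so its place in both counts was favoured by the filter. The 24 h count fell from 16 to 9 without 24 h replicate 2 or 3, and to 10 without 24 h replicate 1 or 0 h replicate 3.

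Between 12 and 24 h, 4 of the 49 passed, Itga3, Lama3 and Timp2 higher and Lamb1 lower at 24 h, or 8.16% beside 5.03%. The count was 1 without 12 h replicate 1 or without any of the 24 h libraries, and 6, all higher at 24 h, without 12 h replicate 3. With the 1.5-fold requirement edgeR, DESeq2 and limma-voom each left 0 members, beside 0.29% of all genes by edgeR. At an unadjusted p of at most 0.05, 1 member reached that fold, Mmp23. Over the series of comparisons 12 members passed against 0 h at both times, 4 at 12 h only and 4 at 24 h only, and 29 passed in none. Both comparisons share the 0 h libraries, and the same split was not made over all genes, so these counts are a description only. Of the 12, all but Itga3 had the same direction at both times.

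**Figure D2:**
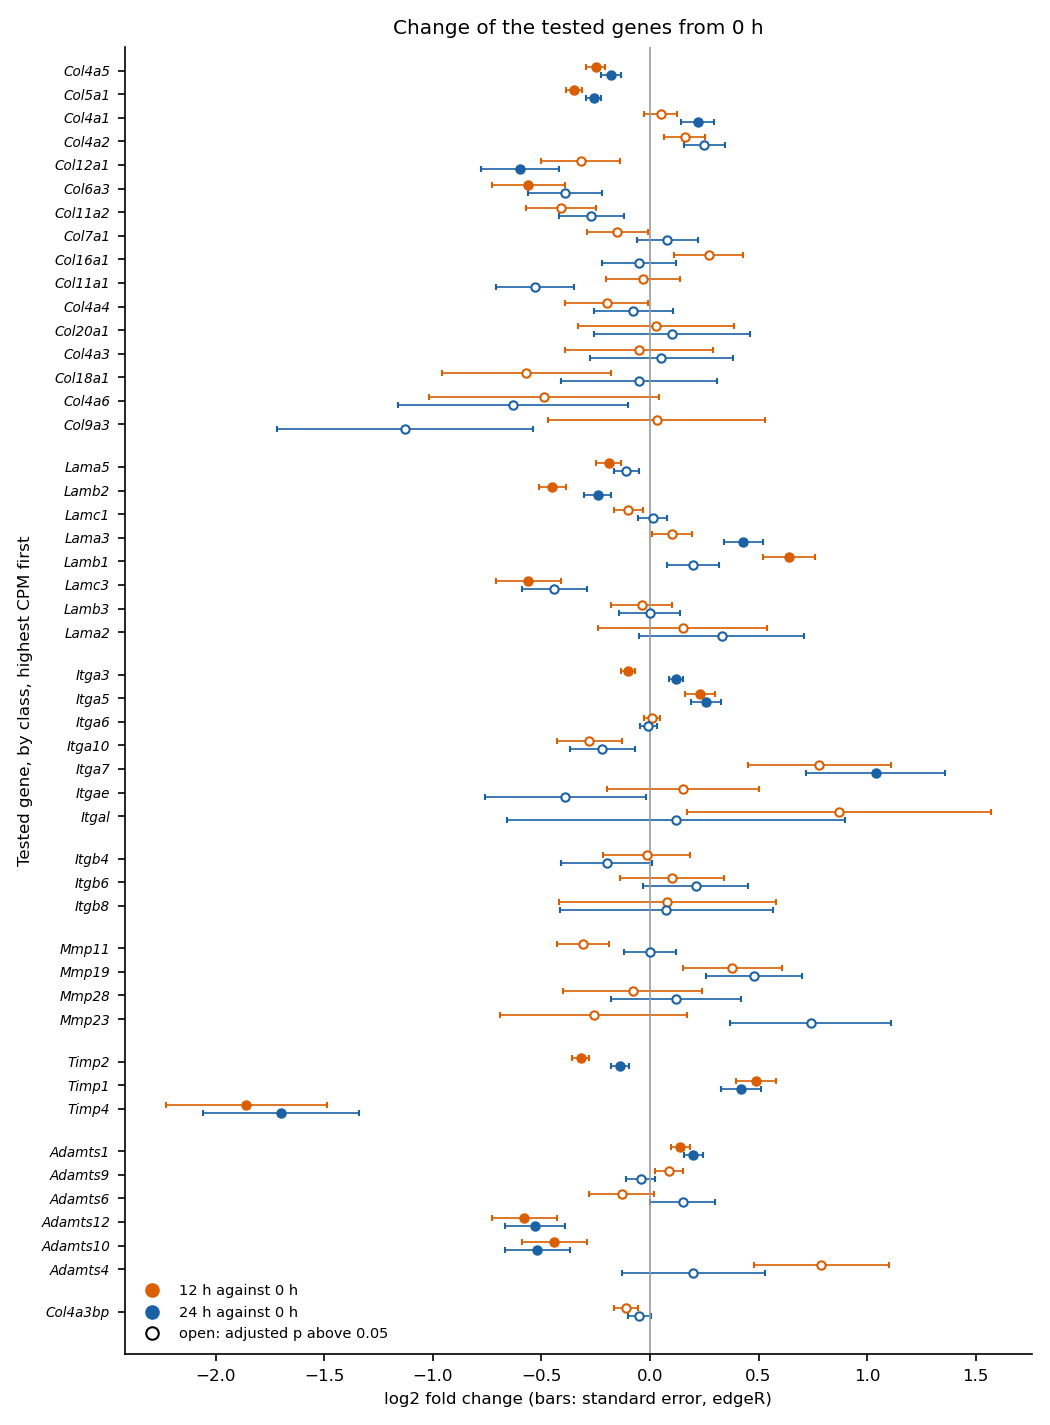
Log2 fold change from 0 h with its standard error for tested genes, by class, at 12 h (orange) and 24 h (blue). Filled points passed an edgeR adjusted p of 0.05. The filled points farthest from 0 are Timp4 at both times (-1.86 and -1.70), Itga7 at 24 h (1.04) and Lamb1 at 12 h (0.64).

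Of the 9 tested laminin genes, 2 rose and 3 fell at 12 h, and 2 rose and 1 fell at 24 h. These are 55.6% and 33.3% of the class, beside 25.5% and 17.4% of all genes. The chains differed in direction. At 12 h the low beta chain gene Lamb1 was among those that rose, while the abundant beta chain gene Lamb2, the alpha chain gene Lama5 and the gamma chain gene Lamc3 fell. The class median was -0.04 on the log2 scale at 12 h and 0.01 at 24 h.

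Lamb1 (ENSMUSG00000002900.16, GRCm38 chr12:31265234-31329644) encodes the beta chain of the laminins laid down early in development. It was measured at 9.62, 6.84 and 7.12 CPM at 0 h, 11.5, 11.2 and 13.8 CPM at 12 h, and 8.74, 9.09 and 8.97 CPM at 24 h. Every 12 h library lay above every 0 h and 24 h library, and the 24 h values fell within the 0 h range. The rise at 12 h was 0.64 ± 0.12 on the log2 scale (SE, adjusted p = 0.000784, edgeR), or 1.56-fold. Without 0 h replicate 2 or 12 h replicate 3 the rise still passed at 0.55, which is below 1.5-fold. At 24 h the difference from 0 h was 0.20 ± 0.12 (adjusted p = 0.294, edgeR), and from 12 h to 24 h the gene fell by 0.44 ± 0.12 (adjusted p = 0.0358, edgeR). Without 0 h replicate 1, whose value was the highest of the 3, the 24 h difference was 0.36 (adjusted p = 0.0422, edgeR). The fall between 12 and 24 h did not pass when 12 h replicate 1 or 3 or any 24 h library was left out (edgeR adjusted p from 0.0840 to 0.123).

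Lamb2, whose beta chain is found in mature basement membranes, went the other way. Its values were 293, 266 and 249 CPM at 0 h, 198, 178 and 216 CPM at 12 h, and 234, 229 and 219.9 CPM at 24 h. All 6 later libraries were below the 0 h libraries, and the 24 h libraries lay between the 0 h and 12 h ranges. Lamb2 fell by 0.45 ± 0.062 at 12 h on the log2 scale (adjusted p = 6.03e-05, edgeR) and by 0.24 ± 0.062 at 24 h (adjusted p = 0.0111, edgeR). The 24 h call was lost without 0 h replicate 1 (-0.18, adjusted p = 0.0632, edgeR) or 24 h replicate 3 (-0.22, adjusted p = 0.0710, edgeR). The return from 12 to 24 h, 0.20 ± 0.062, did not pass in edgeR (adjusted p = 0.0688) but did in DESeq2 (adjusted p = 0.0270), and in edgeR without 12 h replicate 3 (0.27, adjusted p = 0.00763). Per kilobase the ratio of Lamb1 to Lamb2 was 0.0178 ± 0.00219 (SD, n = 3) at 0 h, 0.0377 ± 0.00185 at 12 h and 0.0241 ± 0.00105 at 24 h, and the 3 ranges did not overlap. Lamb3, the beta chain gene of the laminin that anchors epithelia at hemidesmosomes, lay between 2.83 and 3.52 CPM in the 9 libraries, with log2 changes of -0.04 and -0.00 (adjusted p = 0.880 and 0.997, edgeR).

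Lamc1, the widely used gamma chain gene, had 142 to 153 CPM at 0 h, 132, 123 and 156 CPM at 12 h, and 138 to 155 CPM at 24 h. Its differences were -0.10 ± 0.068 and 0.01 ± 0.067 (adjusted p = 0.310 and 0.930, edgeR). Without 12 h replicate 3, the high one, the 12 h difference was -0.19 (adjusted p = 0.00717, edgeR) and that between 12 and 24 h was 0.21 (adjusted p = 0.0136, edgeR).

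Lamc3, a gamma chain gene of more restricted use, was at 5.08, 4.37 and 5.61 CPM at 0 h, 3.07, 4.18 and 2.94 CPM at 12 h, and 3.41, 3.95 and 3.72 CPM at 24 h. The later libraries all lay below 0 h. Lamc3 fell by 0.56 ± 0.15 at 12 h (adjusted p = 0.0115, edgeR), and the 24 h difference of -0.44 ± 0.15 did not pass (adjusted p = 0.0518, edgeR). The 12 h call did not hold without 0 h replicate 3 (-0.46, adjusted p = 0.0587, edgeR) or 12 h replicate 1 (-0.49, adjusted p = 0.0521, edgeR), while the 24 h difference passed without 0 h replicate 2 (-0.53, adjusted p = 0.0341, edgeR) or 12 h replicate 2 or 3 (adjusted p = 0.0331 and 0.0342, edgeR), and with only the 0 h and 24 h libraries fitted (adjusted p = 0.0339, edgeR).

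Of the alpha chain genes, Lama3 belongs to the anchoring laminin and Lama5 to the main laminins of adult basement membranes. Lama3 was at 34.9, 37.1 and 31.7 CPM at 0 h, 35.7, 31.2 and 44.3 CPM at 12 h, and 44.9, 47.9 and 46.9 CPM at 24 h. The 24 h libraries were above all others, and the 12 h libraries spanned the whole 0 h range. Lama3 did not pass at 12 h (0.10 ± 0.092, adjusted p = 0.474, edgeR), and was higher at 24 h than at 0 h by 0.43 ± 0.090 (adjusted p = 0.00304, edgeR) and than at 12 h by 0.33 ± 0.090 (adjusted p = 0.0417, edgeR). The last call was lost without 0 h replicate 1 (adjusted p = 0.0505, edgeR), 12 h replicate 1 or 2 (adjusted p = 0.164 and 0.132, edgeR) or any 24 h library (edgeR adjusted p from 0.0840 to 0.138), and with only the 12 h and 24 h libraries fitted it lay at the threshold and did not pass (adjusted p = 0.05, edgeR). Lama5 was at 637, 675 and 606 CPM at 0 h, 529, 529 and 629 CPM at 12 h, and 569, 615 and 595 CPM at 24 h, so that 12 h replicate 3 overlapped the 0 h range. Lama5 fell by 0.19 ± 0.058 at 12 h (adjusted p = 0.0261, edgeR) and differed by -0.11 ± 0.058 at 24 h (adjusted p = 0.222, edgeR). The 12 h call was lost without 0 h replicate 1 or 2 (adjusted p = 0.0537 and 0.124, edgeR) or 12 h replicate 1 or 2 (adjusted p = 0.126 and 0.107, edgeR), and without 12 h replicate 3 the 24 h level was 0.16 above that of 12 h (adjusted p = 0.0352, edgeR). The Lama3 to Lama5 ratio per kilobase was 0.0572 ± 0.00164 at 0 h, 0.0696 ± 0.00639 at 12 h and 0.0833 ± 0.000568 (SD, n = 3) at 24 h, with no overlap between the 3 times. Lama2, the alpha chain gene of muscle laminin, was at 0.279 to 0.783 CPM, with 10 to 24 counts, and its differences of 0.15 and 0.33 did not pass (adjusted p = 0.828 and 0.621, edgeR). Lama4 had at most 1 count.

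**Figure D3:**
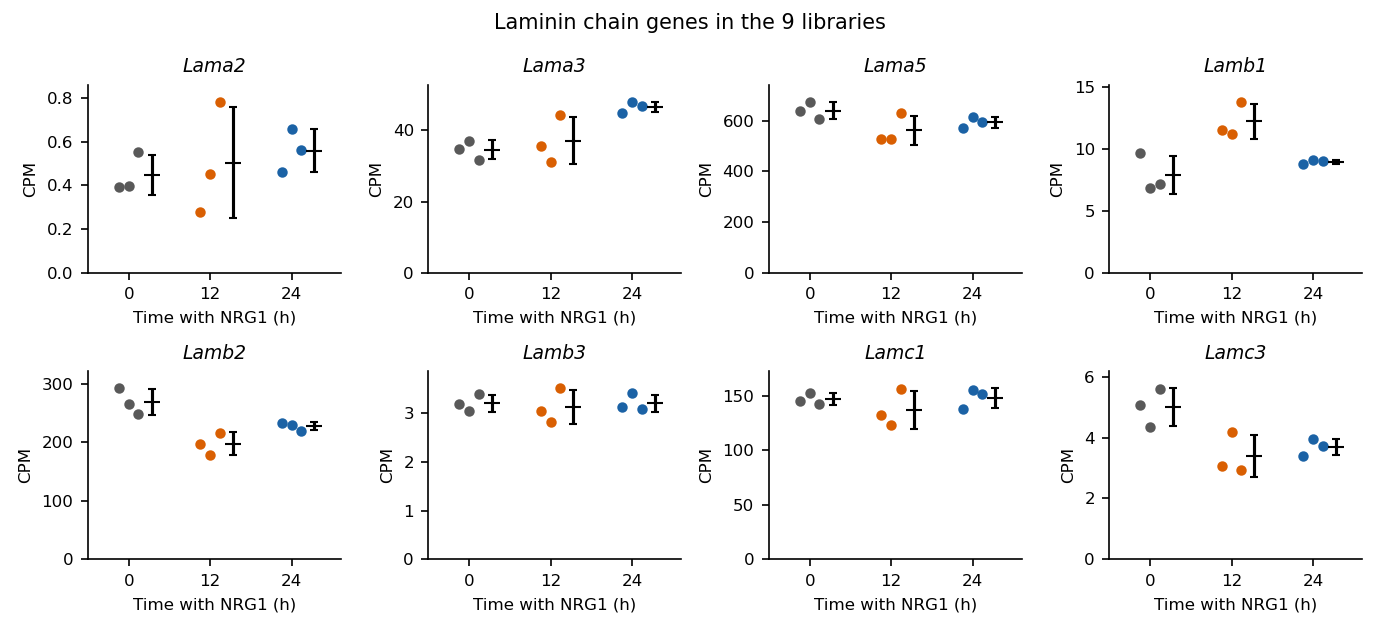
CPM of laminin chain genes at 0, 12 and 24 h with NRG1. Points are single libraries and the black marks give mean and SD (3 libraries), each axis starting at 0. Lamb1 peaks at 12 h, Lamb2 dips at 12 h and Lama3 is higher at 24 h.

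Among the integrin alpha genes, 1 rose and 1 fell at 12 h and 3 rose at 24 h of the 7 tested, or 28.6% beside 25.5% of all genes and 42.9% beside 17.4%. Itga3 was the one gene in the set that passed at both times in opposite directions. It stood at 2251, 2194 and 2136 CPM at 0 h, 2034, 2039 and 2054 CPM at 12 h, and 2348, 2382 and 2417 CPM at 24 h. The ranges of the 3 times did not overlap, with 12 h lowest and 24 h highest. Itga3 fell by 0.10 ± 0.032 at 12 h (adjusted p = 0.0275, edgeR) and rose by 0.12 ± 0.032 at 24 h over 0 h (adjusted p = 0.0175, edgeR). Between 12 and 24 h it rose by 0.22 ± 0.032 (adjusted p = 0.000781, edgeR), and this passed in every alternative run that set no fold threshold. The 12 h call was lost without 0 h replicate 2, any 12 h library or 24 h replicate 2 (edgeR adjusted p from 0.0569 to 0.0762) and with only the 0 h and 12 h libraries fitted (-0.11, adjusted p = 0.0791, edgeR), and the 24 h call without 0 h replicate 3 or 24 h replicate 2 or 3 (edgeR adjusted p from 0.0576 to 0.0839).

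Itga6, the other abundant laminin-binding subunit and a hemidesmosome component, did not pass at either time. Its 9 libraries lay between 103 and 110 CPM, with differences of 0.01 ± 0.038 and -0.01 ± 0.038 (adjusted p = 0.891 and 0.924, edgeR). Itga7, the laminin-binding subunit best known from muscle, was scarce, at 0.532, 0.710 and 0.349 CPM at 0 h, 0.838, 0.804 and 1.14 CPM at 12 h, and 1.47, 1.02 and 0.866 CPM at 24 h. Both later times lay above the 0 h range, on 12 to 45 counts per library. Its difference was 0.78 ± 0.33 at 12 h (adjusted p = 0.0948, edgeR) and 1.04 ± 0.32 at 24 h (adjusted p = 0.0323, edgeR), or 2.06-fold. The 24 h call was lost without 0 h replicate 1 or 3 (adjusted p = 0.0744 and 0.131, edgeR) or 24 h replicate 1 or 2 (adjusted p = 0.149 and 0.0584, edgeR).

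Itga5 encodes the alpha subunit of the fibronectin receptor. It was at 99.3, 108 and 96.7 CPM at 0 h, 109.9, 111 and 136 CPM at 12 h, and 116, 129 and 118 CPM at 24 h. No later library reached down to the 0 h range. Itga5 rose by 0.23 ± 0.069 at 12 h (adjusted p = 0.0216, edgeR) and by 0.26 ± 0.069 at 24 h (adjusted p = 0.0162, edgeR). At 12 h Itga5 no longer passed without 0 h replicate 1 or 3 (adjusted p = 0.0695 and 0.0731, edgeR), or without 12 h replicate 3, where the rise was 0.13 (adjusted p = 0.0636, edgeR). The 24 h call was lost without 0 h replicate 1 or 3 (adjusted p = 0.0572 and 0.0620, edgeR) or 24 h replicate 2 (adjusted p = 0.0735, edgeR). Itga10, a collagen-binding subunit, was at 2.85 to 4.34 CPM and did not pass, and 33.5% of its exonic bases overlap another gene on the same strand. The leukocyte subunit genes Itgae and Itgal had means of 0.565 and 0.256 CPM over the 9 libraries and did not pass.

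None of the 3 tested integrin beta genes passed at 12 or 24 h, by edgeR, DESeq2 or limma-voom, and 0 had an unadjusted p of at most 0.05. Itgb4, the hemidesmosome partner of Itga6, was at 2.04 ± 0.555, 2.00 ± 0.197 and 1.75 ± 0.0924 CPM at the 3 times in turn (SD, n = 3). Itgb6, a subunit of an epithelial receptor that activates TGF-beta, was at 0.901 ± 0.0811, 0.962 ± 0.140 and 1.03 ± 0.0311 CPM. Itgb8, which has a like role, was at 0.132 to 0.587 CPM with 5 to 20 counts, and the SE of its log2 difference at 12 h was 0.50.

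Of 16 tested collagen genes, 3 fell and 0 rose at 12 h, or 18.8% beside 25.5% of all genes, and 3 fell and 1 rose at 24 h, or 25% beside 17.4%. The class median was -0.18 at 12 h and -0.13 at 24 h on the log2 scale. At 12 h an unadjusted p of at most 0.05, in either direction, was reached by 4 of the 16, and DESeq2 and limma-voom each passed 3.

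Col5a1 (ENSMUSG00000026837.16, GRCm38 chr2:27886425-28039514) encodes a chain of type V collagen, which starts and thins collagen fibrils. It was at 174, 183 and 178 CPM at 0 h, 136, 143 and 143 CPM at 12 h, and 151, 149 and 147 CPM at 24 h. The 3 ranges were separate, with 12 h lowest and 24 h in between. Col5a1 fell by 0.35 ± 0.037 at 12 h (adjusted p = 5.79e-06, edgeR) and by 0.26 ± 0.036 at 24 h (adjusted p = 7.30e-05, edgeR). Both falls passed in every alternative run that set no fold threshold. The difference between 12 and 24 h, 0.08 ± 0.037, did not pass (adjusted p = 0.223, edgeR).

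Col4a5, an alpha chain gene of type IV collagen on the X chromosome, was the most abundant collagen gene per kilobase. Its values were 191, 187 and 175 CPM at 0 h, 159.6, 148 and 156 CPM at 12 h, and 155, 159.6 and 171 CPM at 24 h. All later libraries were below 0 h. Col4a5 fell by 0.25 ± 0.045 at 12 h (adjusted p = 0.000654, edgeR) and by 0.18 ± 0.045 at 24 h (adjusted p = 0.00935, edgeR), the latter not passing without 24 h replicate 1 (-0.15, adjusted p = 0.0622, edgeR). Col4a1, the chain gene of the ubiquitous type IV network, had a lower level, with 15.2, 16.6 and 14.5 CPM at 0 h, 15.6, 15.0 and 17.4 CPM at 12 h, and 17.5, 18.5 and 18.1 CPM at 24 h. The 24 h libraries lay above the other 6. The rise at 24 h was 0.22 ± 0.075 (adjusted p = 0.0477, edgeR). It was lost without 0 h replicate 1 or 3, 12 h replicate 1 or any 24 h library (edgeR adjusted p from 0.0689 to 0.174). Col4a2, its partner chain gene, had 8.65 to 9.58 CPM at 0 h and 10.1 to 11.3 CPM at 24 h, a difference of 0.25 ± 0.094 that did not pass (adjusted p = 0.0838, edgeR).

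Col6a3, a chain gene of beaded-filament type VI collagen, was at 9.01, 9.34 and 7.03 CPM at 0 h, 4.41, 5.08 and 7.86 CPM at 12 h, and 7.21, 6.46 and 5.81 CPM at 24 h. 12 h replicate 3 lay within the 0 h range. Col6a3 fell by 0.56 ± 0.17 at 12 h (adjusted p = 0.0234, edgeR) and differed by -0.39 ± 0.17 at 24 h (adjusted p = 0.125, edgeR). Col6a3 no longer passed at 12 h without 0 h replicate 1 or 2 (adjusted p = 0.0738 and 0.0970, edgeR) or 12 h replicate 1 or 2 (adjusted p = 0.129 and 0.0840, edgeR), and the 24 h difference passed without 12 h replicate 3 (adjusted p = 0.0296, edgeR) or with only the 0 h and 24 h libraries fitted (adjusted p = 0.0351, edgeR). Col12a1, the gene of a fibril-associated collagen, was at 8.52, 9.60 and 7.61 CPM at 0 h, 5.42, 6.14 and 9.17 CPM at 12 h, and 4.36, 7.09 and 5.50 CPM at 24 h. The 24 h libraries were below 0 h, and 12 h replicate 3 again overlapped 0 h. Col12a1 fell by 0.60 ± 0.18 at 24 h (adjusted p = 0.0280, edgeR), but not by DESeq2 (-0.60, adjusted p = 0.0994) and not without 0 h replicate 1 or 2 (adjusted p = 0.0627 and 0.116, edgeR) or 24 h replicate 1 or 3 (adjusted p = 0.123 and 0.0996, edgeR). At 12 h the difference was -0.32 ± 0.18 (adjusted p = 0.201, edgeR), and without 12 h replicate 3 -0.56 (adjusted p = 0.0121, edgeR). The other 11 tested collagen genes did not pass at either time, among them Col11a1 and Col11a2, chain genes of a fibrillar collagen of cartilage, with edgeR adjusted p = 0.0502 at 24 h and 0.0665 at 12 h, and Col7a1, the anchoring-fibril collagen gene, at 4.61, 4.17 and 4.93 CPM at the 3 times.

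All 3 tested metalloproteinase inhibitor genes passed at both times, 1 higher and 2 lower, beside 25.5% of all genes at 12 h and 17.4% at 24 h. Of the lower pair, Timp4 was in the tested set through its 0 h counts, which favoured its place in this count. Timp1, a secreted inhibitor also known to promote cell growth, was at 10, 9.68 and 11.8 CPM at 0 h, 13.2, 15.7 and 15.4 CPM at 12 h, and 14.4, 13.4 and 14.3 CPM at 24 h. Every later library was above every 0 h library. Timp1 rose by 0.49 ± 0.092 at 12 h (adjusted p = 0.000891, edgeR) and by 0.42 ± 0.092 at 24 h (adjusted p = 0.00433, edgeR). Both rises passed in every alternative run that set no fold threshold.

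Timp2, which both inhibits metalloproteinases and takes part in activating Mmp2, was at 303, 280.5 and 305 CPM at 0 h, 239, 245 and 227 CPM at 12 h, and 268, 263 and 273 CPM at 24 h. The 3 ranges did not overlap, with 24 h between the other two. Against 0 h, Timp2 fell by 0.32 ± 0.041 at 12 h (adjusted p = 2.75e-05, edgeR) and changed by -0.14 ± 0.041 at 24 h (adjusted p = 0.0221, edgeR), and it rose by 0.18 ± 0.041 from 12 to 24 h (adjusted p = 0.0186, edgeR). The 24 h call was lost without 0 h replicate 1 or 3 or any 24 h library (edgeR adjusted p from 0.0543 to 0.121), and the rise from 12 h without 12 h replicate 1 or any 24 h library (edgeR adjusted p from 0.0610 to 0.0835). The Timp1 to Timp2 ratio per kilobase was 0.155 ± 0.0127 at 0 h, 0.274 ± 0.0291 at 12 h and 0.229 ± 0.00647 (SD, n = 3) at 24 h, and the 3 ranges were separate.

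Timp4 (ENSMUSG00000030317.8, GRCm38 chr6:115241892-115252205), an inhibitor with a narrow tissue range, had the largest fitted change of the 49 tested members but was scarce. It had 26, 30 and 27 counts at 0 h, 12, 4 and 6 at 12 h, and 6, 10 and 10 at 24 h. As CPM these were 0.923, 0.789 and 0.784, then 0.335, 0.129 and 0.196, then 0.197, 0.299 and 0.255. No later library reached the 0 h range. Its 0 h counts carried it past the count filter, so a fall was favoured by that selection and the values are given as a description. Timp4 fell by 1.86 ± 0.37 at 12 h (adjusted p = 0.00149, edgeR), to 0.275 of the 0 h level, and by 1.70 ± 0.36 at 24 h (adjusted p = 0.00323, edgeR), to 0.307 of it. With no filter on low counts the adjusted p was 0.000382 and 0.00133 (edgeR), which rests on the same few counts and adds no separate support.

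Proteases of the Mmp class did not pass. None of the 4 tested Mmp genes passed at 12 or 24 h by edgeR, DESeq2 or limma-voom, with 1 at an unadjusted p of at most 0.05 at each time. Mmp11, a stromelysin, was at 10.2, 7.76 and 8.10 CPM at 0 h, 7.77, 7.08 and 5.97 CPM at 12 h, and 8.35, 9.0 and 8.51 CPM at 24 h, and the 12 h range touched that of 0 h. Its 12 h difference was -0.31 ± 0.12 (adjusted p = 0.0662, edgeR). It passed without 0 h replicate 2 (-0.38, adjusted p = 0.0476, edgeR) or 12 h replicate 1 (-0.40, adjusted p = 0.0423, edgeR). Mmp19, which cuts basement membrane proteins, was at 1.24 ± 0.132, 1.62 ± 0.401 and 1.75 ± 0.205 CPM (SD, n = 3), with 28.3% of its exonic bases overlapping a gene on the opposite strand. Mmp23, a membrane-bound form, was at 0.400 ± 0.173, 0.345 ± 0.117 and 0.688 ± 0.143 CPM on 8 to 26 counts.

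The ADAMTS class was led by Adamts1 (ENSMUSG00000022893.14, GRCm38 chr16:85793827-85803113), which cuts the proteoglycans aggrecan and versican. Adamts1 was at 369, 354 and 337 CPM at 0 h, 399, 366 and 402 CPM at 12 h, and 404, 418 and 398 CPM at 24 h. The 24 h libraries lay above 0 h, and 12 h replicate 2 fell within the 0 h range. The rise was 0.14 ± 0.043 at 12 h (adjusted p = 0.0246, edgeR) and 0.20 ± 0.043 at 24 h (adjusted p = 0.00336, edgeR). The rise at 24 h passed in every alternative run that set no fold threshold. The 12 h call was lost without 0 h replicate 2 or 3 (adjusted p = 0.0519 and 0.101, edgeR) or 12 h replicate 1 (adjusted p = 0.0948, edgeR), and with only the 0 h and 12 h libraries fitted (adjusted p = 0.0605, edgeR).

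A pair of low ADAMTS genes fell. Adamts12, which cuts cartilage oligomeric matrix protein, was at 4.12, 5.16 and 4.79 CPM at 0 h, 2.91, 2.99 and 3.59 CPM at 12 h, and 3.77, 2.96 and 3.08 CPM at 24 h. Adamts10, which binds fibrillin microfibrils, was at 3.05, 3.95 and 3.72 CPM at 0 h, 2.32, 3.02 and 2.61 CPM at 12 h, and 2.59, 2.57 and 2.37 CPM at 24 h. In both, all later libraries lay below 0 h. Adamts12 fell by 0.58 ± 0.15 at 12 h (adjusted p = 0.00751, edgeR) and by 0.53 ± 0.14 at 24 h (adjusted p = 0.0164, edgeR), the latter lost without 0 h replicate 2 (adjusted p = 0.0715, edgeR) or 24 h replicate 2 or 3 (adjusted p = 0.0724 and 0.0680, edgeR). Adamts10 fell by 0.44 ± 0.15 at 12 h (adjusted p = 0.0430, edgeR) and by 0.52 ± 0.15 at 24 h (adjusted p = 0.0262, edgeR). At 12 h DESeq2 gave an adjusted p of 0.0656, and edgeR with only the 0 h and 12 h libraries one of 0.0604. The 12 h call was lost without 0 h replicate 2 or 3, 12 h replicate 1 or 3, or 24 h replicate 2 (edgeR adjusted p from 0.0575 to 0.155), and the 24 h call without 0 h replicate 2 or 3 or any 24 h library (edgeR adjusted p from 0.0518 to 0.106).

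Adamts9, another proteoglycan-cutting member at 65.4 to 84.1 CPM, did not pass (0.09 ± 0.065 at 12 h, adjusted p = 0.359, edgeR). Without 12 h replicate 2, the lowest of its group, the difference was 0.18 (adjusted p = 0.0229, edgeR) at 12 h and -0.22 (adjusted p = 0.0269, edgeR) from 12 to 24 h. Of its exonic bases, 12.0% overlap a gene on the opposite strand. Adamts6 was at 4.81 ± 0.725, 4.44 ± 0.834 and 5.40 ± 0.551 CPM (SD, n = 3) and did not pass. Adamts4, an aggrecan-cutting enzyme, was at 0.576, 1.01 and 0.682 CPM at the 3 times, a difference of 0.79 ± 0.31 at 12 h (adjusted p = 0.0703, edgeR). Col4a3bp, the gene that only shares the collagen name, was at 66.2 ± 1.42, 61.2 ± 3.38 and 64.0 ± 4.67 CPM and did not pass.

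**Figure D4:**
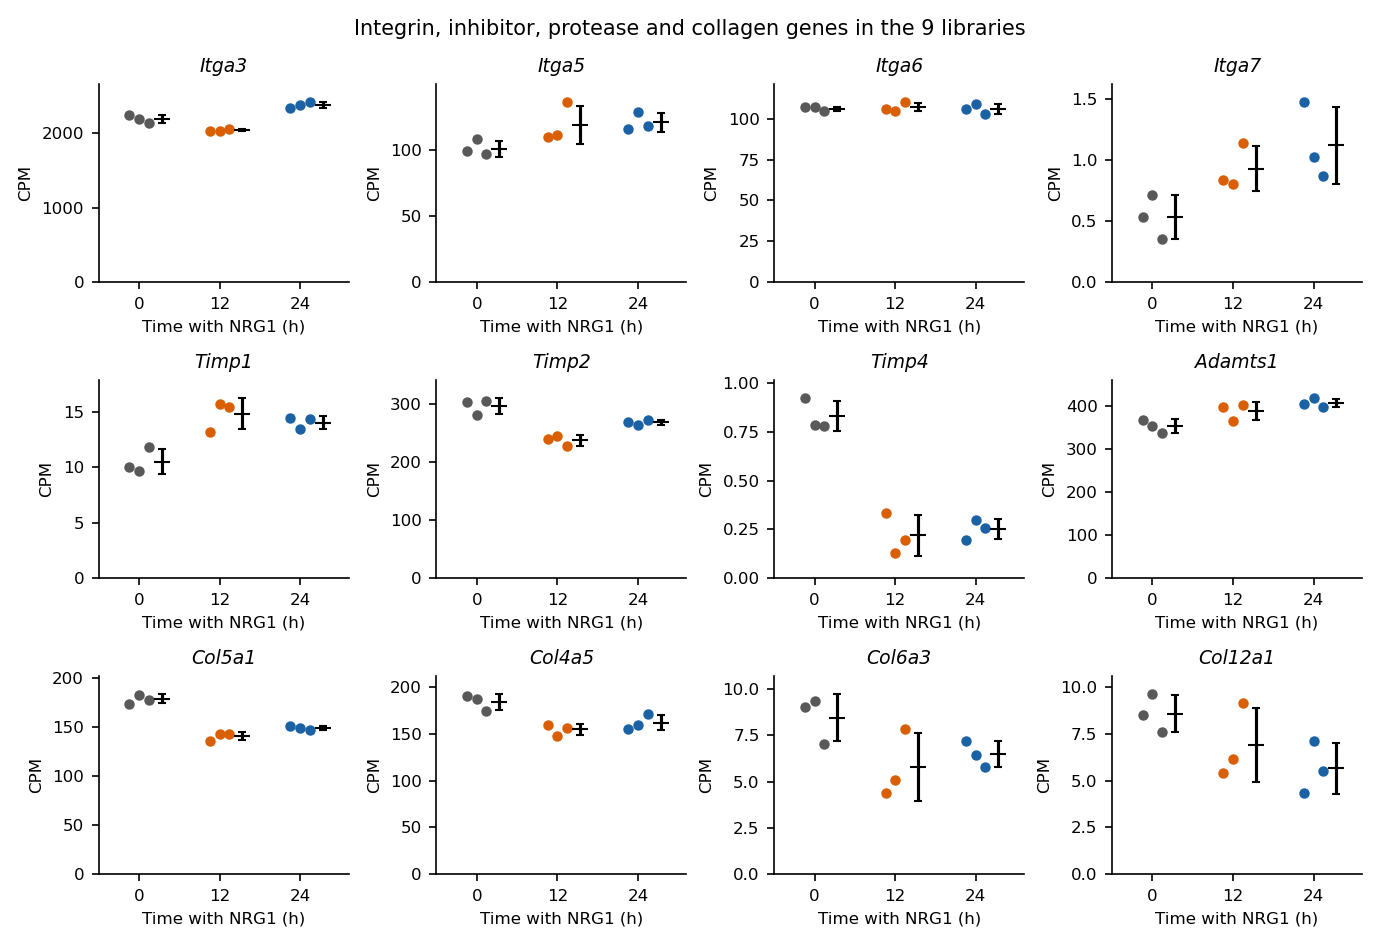
CPM at 0, 12 and 24 h with NRG1 of 12 integrin, inhibitor, protease and collagen genes. Points are single libraries, black marks give mean and SD (3 libraries), and each axis starts at 0. Itga3 is lowest at 12 h and highest at 24 h, Timp1 is higher and Timp4 lower at both later times, and 12 h replicate 3 is set apart in Col6a3 and Col12a1.

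The genes that work with these proteins were described by 4 lists written from general knowledge, with earlier results of these data known. Of 21 tested collagen-modifying and folding enzymes, 1 rose and 4 fell at 12 h and 0 rose and 6 fell at 24 h, with medians of -0.03 and -0.09 on the log2 scale. These were 23.8% and 28.6% of the list, beside 25.5% and 17.4% of all genes. P3h1, a collagen prolyl hydroxylase, went from 61.0 ± 2.3 to 53.5 ± 2.6 and 50.7 ± 1.33 CPM (SD, n = 3), log2 changes of -0.19 ± 0.047 and -0.27 ± 0.047 (adjusted p = 0.00686 and 0.000769, edgeR). The collagen cross-linking enzyme gene Loxl4 dipped, from 359 ± 6.03 to 287 ± 14.0 and back to 354 ± 12.8 CPM, changing by -0.32 ± 0.041 at 12 h (adjusted p = 2.66e-05, edgeR) and by 0.30 ± 0.041 from 12 to 24 h (adjusted p = 0.000449, edgeR). P4ha3, a procollagen hydroxylase subunit, was at 1.15 ± 0.247 CPM at 24 h beside 2.35 ± 0.675 at 0 h (-1.02 ± 0.24, adjusted p = 0.00735, edgeR).

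Of 21 tested matrix glycoproteins and proteoglycans, 0 rose and 7 fell at 12 h, and 0 rose and 2 fell at 24 h, with medians of -0.14 and -0.09. The shares that passed, 33.3% and 9.52%, stand beside 25.5% and 17.4% of all genes. Tnxb, the gene of tenascin-X, fell by 0.37 ± 0.083 at 12 h (adjusted p = 0.00385, edgeR), from 1132 ± 63.7 to 879 ± 155 CPM, with 1056 CPM in 12 h replicate 3 beside 815 and 766. Npnt, the gene of the basement membrane protein nephronectin, fell by 0.33 ± 0.080 at 12 h (adjusted p = 0.00646, edgeR), from 16.9 ± 0.875 to 13.4 ± 0.254 CPM. Efemp1, a fibulin gene, changed by -0.17 ± 0.039 and -0.23 ± 0.039 at the later times (adjusted p = 0.00490 and 0.000505, edgeR).

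Of 29 tested integrin adaptors and other matrix receptors, 6 rose and 4 fell at 12 h and 5 rose and 1 fell at 24 h, with medians of 0.04 and 0.03, or 34.5% and 20.7% of the list beside 25.5% and 17.4%. Parva, an adaptor that ties integrins to actin, fell from 190.4 ± 3.56 to 150.0 ± 5.74 and 159 ± 2.7 CPM, changing by -0.34 ± 0.037 and -0.26 ± 0.037 (adjusted p = 7.02e-06 and 0.000106, edgeR). The talin gene Tln1, whose product switches integrins on, fell by 0.26 ± 0.062 at 12 h (adjusted p = 0.00507, edgeR) and differed by -0.17 ± 0.062 at 24 h (adjusted p = 0.0624, edgeR). Lims2, another adaptor gene, was at 0.636 ± 0.278 CPM at 0 h and 1.42 ± 0.222 at 24 h (1.15 ± 0.38, adjusted p = 0.0430, edgeR), a call lost without 0 h replicate 1 or 3 or any 24 h library (edgeR adjusted p from 0.0702 to 0.169).

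Of 18 tested genes of the plasminogen system, sheddases and inhibitors, 5 rose and 3 fell at 12 h and 3 rose and 2 fell at 24 h, with medians of -0.01 and -0.02. The list's shares were 44.4% and 27.8%, beside 25.5% and 17.4% of all genes. Reck, a membrane-bound metalloproteinase inhibitor, fell by 0.39 ± 0.11 at 12 h (adjusted p = 0.0143, edgeR), which was lost without 0 h replicate 1 or 12 h replicate 3 (adjusted p = 0.0645 and 0.0536, edgeR). Adam8, a cell-surface protease gene, rose by 0.65 ± 0.18 at 24 h (adjusted p = 0.0202, edgeR), which was lost without 0 h replicate 3 or 24 h replicate 2 (adjusted p = 0.0861 and 0.0599, edgeR).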

How the data were processed

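RNA-seq was performed on 9 mRNA libraries of MyC-CaP cells at 0, 12 and 24 h of NRG1 treatment, as paired-end 150 bp reads. Per the labels and the study's methods, adaptors were removed with Cutadapt, read quality was checked with FastQC 0.11.9, STAR was used for alignment to GRCm38 and featureCounts for assigning reads to GENCODE genes. The authors deposited unnormalized whole-number counts, 1 table for the 9 libraries, and its 15552 rows are protein-coding genes. The strand setting was not given in the sources used here, so reads from overlapping genes cannot be told apart. For named genes this is said where an overlap exceeds 10% of exonic bases, except for Itgb1, Itgb3 and Itgb5, whose overlaps were not measured.

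The members and gene lists were chosen with earlier results of these data known. Counts were filtered with filterByExpr, scaled by TMM and fitted for all 9 libraries with glmQLFit in edgeR 4.0.16 (R 4.3.3). Time points were compared with glmQLFTest, adjusted by Benjamini-Hochberg over 11373 genes. The p-values measure the spread between these samples, which the labels call biological replicates. The study's methods describe seeding the cells in triplicate wells, so this spread may be that between wells and not between separate experiments. Thresholds were an adjusted p of 0.05 and, where stated, a fold change of 1.5. Standard errors came from the log2 fold change and its F value. CPM per kilobase used merged exon lengths of GENCODE vM21, and promoters came from RefSeq on GRCm38.p6. Depth was 28467089 to 39239760 counts per library. The procedure was tested on simulated data.

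Members were named if they passed both thresholds in any comparison, were among the 4 largest changes per class with a mean of at least 1 CPM, were among the 3 highest levels per class, or passed between 12 and 24 h. Up to 3 genes were named per partner list. Others are named to account for them, and a few genes that count in the totals are not reported here by name. Alternatives were other scaling (RLE, total counts), DESeq2 1.42.0, limma-voom (limma 3.58.1), other filters, a replicate block, only the 6 libraries compared, glmTreat and leaving out each library in turn. Of these only glmTreat sets a fold threshold in its test. It was used for the member counts at 1.5-fold and not for the results of single genes.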

Additional observations from a re-analysis of the deposited data

Results flagged for a closer look

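The changes from 0 h at 12 h and at 24 h differed from each other, by edgeR's test of 24 h against 12 h over all genes, for 4 members. The log2 difference was 0.22 for Itga3 (edgeR adjusted p = 0.000781), 0.33 for Lama3 (edgeR adjusted p = 0.0417), -0.44 for Lamb1 (edgeR adjusted p = 0.0358) and 0.18 for Timp2 (edgeR adjusted p = 0.0186). In each of the 4 the ranges of the 12 h and 24 h libraries did not overlap. The genes were picked by this test on the same libraries, so the separate ranges add no support. Ranges were also separate in members that did not pass, among them Lamb2, Col5a1 and Mmp11. Only the Itga3 difference passed without each library in turn. Those of Lama3, Lamb1 and Timp2 were each lost without any one of the 24 h libraries or without 12 h replicate 1, with edgeR adjusted p up to 0.164, 0.123 and 0.0835.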

How the results depend on the processing

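The number of members past the adjusted p at 12 h was 11 to 19 in the alternatives, beside 16. At 24 h, leaving out each library in turn gave 9 to 19, beside 16, and between 12 and 24 h it gave 1 to 6, beside 4. With the 1.5-fold requirement, 12 h gave 4 members by limma-voom, 1 with a mean of at least 1 CPM required and 0 by glmTreat, beside 2, and 24 h gave 1 and 0 by the latter pair, beside 3. The stricter filter leaves out Timp4 and Itga7, and glmTreat asks for evidence that a change exceeds 1.5-fold. With the replicate number as a block 18, 15 and 4 members passed at 12 h, at 24 h and between them, and the numbers were not taken to pair the samples, since the deviations of same-numbered libraries from their group means correlated at -0.0744 to 0.131 and not every library correlated best with its own number. The block ended 1 named call (Col4a1 at 24 h, edgeR adjusted p = 0.0562) and made 1 (Mmp11 at 12 h, edgeR adjusted p = 0.0447). Of the 36 named results past the threshold, 16 passed in every alternative that tested them without a fold threshold. The call was lost for 20 without at least 1 library and for 2 under DESeq2, and 0 reversed. Of the 57 not past it, 11 passed in at least 1 alternative. Fitting only the 6 libraries compared gave 13, 18 and 3 members past the threshold at 12 h, at 24 h and between them. Members under 1 CPM rest on few counts, and a difference that did not pass there does not show that levels were equal.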
